A study of Mus musculus with 8 samples.

Results

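The globin genes were followed through dorsal root ganglia of mouse embryos at stage E12.5, which carry the RNA of circulating blood together with that of sensory neurons and glia. The set is the genes Hba-x, Hba-a1, Hba-a2, Hbb-y, Hbb-bh1, Hbb-b1 and Hbb-b2, taken by the gene symbol of each probe. Of these 7 genes, 5 have a probe under their symbol and together hold 6 of the 25697 probes; Hba-a2 and Hbb-b1 have none under theirs in the annotation used here. All 5 genes passed the filter on dim probes, with 6 of 6 probes above it on every array. The genes were chosen by their symbol with their measured mutant-minus-wild-type differences, that of Hbb-b2 above all, already known. Differences of globins between the genotypes are therefore given as a description, and nothing is read from their test results.

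Total RNA was labelled with biotin and hybridised to Illumina bead arrays, 4 from mutant and 4 from wild-type ganglia. The mutant genotype is Erk1/2CKO(Wnt1), a loss of Erk1/2, kinases of the MAPK cascade, that uses a Wnt1-driven Cre. Such a Cre acts in neural crest cells, the source of the neurons and glia of the ganglia. The labels do not list the single alleles, and whether Erk1 or Erk2 is also missing outside the crest is not given in the sources used here. The controls are described as wild-type without further alleles, no strain is given for either group, and the embryos came from 3 litters that are not tied to single arrays. Whether an array holds 1 embryo or a pool is not stated, and mutant and wild-type arrays lay in different positions of 1 slide, so position and genotype cannot be told apart.

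Haemoglobin is a tetramer of alpha-type and beta-type chains around haem, and it fills red blood cells. The first red cells of a mouse embryo form in the yolk sac and use the embryonic chains encoded by Hba-x (zeta), Hbb-bh1 (beta-h1) and Hbb-y (epsilon-y) beside adult alpha chains. Later red cells from the fetal liver use the adult chains of Hba-a1, Hba-a2 and the adult beta genes. Neither lineage arises from the neural crest. Within the beta cluster Hbb-bh1 declines before Hbb-y as primitive red cells mature. Inbred mouse strains differ in their adult beta genes: some carry Hbb-b1 and Hbb-b2, and others, the reference strain among them, carry Hbb-bs and Hbb-bt.

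The alpha-type genes lie on chromosome 11 of GRCm38.p6, Hba-x at chr11:32276600-32278116, Hba-a1 at chr11:32283672-32284486 and Hba-a2 at chr11:32296492-32297310. The beta-type genes of the reference chromosome 7 are Hbb-bt (chr7:103812524-103813923), Hbb-bs (chr7:103826523-103827928), Hbb-bh1 (chr7:103841638-103843162) and Hbb-y (chr7:103851754-103853207). The annotation assigns Hbb-b1 and Hbb-b2 to chromosome 7 but numbers them from 38285 and 53494, apart from the rest of the cluster, so they have no place in this order. The probe whose platform accession now belongs to Hbb-bt is shown beside the set as the other adult beta-type probe on the array.

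The sequence before the start sites is shown for the control regions of the genes that are compared here, and for how far the copies resemble each other there. RefSeq windows of 250 bases before the start (GRCm38.p6) were at hand for Hba-x, Hba-a1, Hba-a2, Hbb-y, Hbb-bt and Hbb-bs, and 5 of them are printed 5′ to 3′ on the strand of the gene. Capitals mark matches on either strand to 4 short motifs of globin promoters: GATAA, the core bound by GATA factors, CACCC, the box bound by Klf1 and its relatives, CCAAT, a box of many promoters, and TATAA, the TATA box. A match on the other strand is capitalised as its reverse complement.
Hba-x, chr11:32276350-32276599, plus strand: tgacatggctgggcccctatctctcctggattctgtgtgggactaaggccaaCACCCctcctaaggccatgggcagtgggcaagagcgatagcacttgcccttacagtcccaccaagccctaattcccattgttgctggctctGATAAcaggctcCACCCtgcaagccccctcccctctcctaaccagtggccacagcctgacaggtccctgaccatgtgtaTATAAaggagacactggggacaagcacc
Hba-a1, chr11:32283422-32283671, plus strand: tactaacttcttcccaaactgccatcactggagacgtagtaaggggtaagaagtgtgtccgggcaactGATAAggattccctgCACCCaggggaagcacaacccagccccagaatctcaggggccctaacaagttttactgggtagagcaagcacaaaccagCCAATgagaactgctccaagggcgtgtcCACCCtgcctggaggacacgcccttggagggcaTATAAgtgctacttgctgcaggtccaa
Hbb-y, chr7:103853208-103853457, minus strand: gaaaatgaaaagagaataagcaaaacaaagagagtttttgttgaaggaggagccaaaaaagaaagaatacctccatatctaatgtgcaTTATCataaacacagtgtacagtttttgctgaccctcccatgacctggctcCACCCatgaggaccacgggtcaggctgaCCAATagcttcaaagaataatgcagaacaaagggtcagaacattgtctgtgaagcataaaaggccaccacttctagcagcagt
Hbb-bt, chr7:103813924-103814173, minus strand: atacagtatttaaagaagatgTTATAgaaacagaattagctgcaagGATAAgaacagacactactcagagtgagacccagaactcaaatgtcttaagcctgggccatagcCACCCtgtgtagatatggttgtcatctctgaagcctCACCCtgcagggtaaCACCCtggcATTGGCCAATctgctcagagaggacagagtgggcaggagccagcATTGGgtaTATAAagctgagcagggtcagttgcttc
Hbb-bs, chr7:103827929-103828178, minus strand: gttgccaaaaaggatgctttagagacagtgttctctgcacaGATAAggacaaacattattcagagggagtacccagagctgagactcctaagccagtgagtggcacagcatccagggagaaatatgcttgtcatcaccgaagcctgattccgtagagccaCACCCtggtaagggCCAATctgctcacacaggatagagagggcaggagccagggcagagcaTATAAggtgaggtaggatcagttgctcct

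The window of Hba-a2 is that of Hba-a1 shifted by a few bases, and 247 of 247 aligned bases were identical (100%). The windows of Hbb-bt and Hbb-bs were identical at 178 of 243 aligned bases (73.3%). All 4 motifs occurred in the windows of Hba-a1, Hbb-bt and Hbb-bs, against 0.968% of the 32851 promoter windows of the table. Hba-x lacked CCAAT and Hbb-y lacked TATAA in these windows. Single motifs were common: the GATA core was found in 22.6% of all windows, the Klf1-type box in 52.0%, the CCAAT box in 33.8% and the TATA box in 22.8%. Probe sequences were not used here, so whether the Hba-a1 probe also takes up Hba-a2 RNA, or an adult beta probe that of other copies, was not tested.

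The adult beta gene Hbb-b2, whose chain joins adult haemoglobin, showed the largest difference of the set. Its raw bead intensity was 747, 650.2, 889 and 970.4 on mutant arrays 1 to 4, against 211, 217, 180 and 191 on wild-type arrays 1 to 4. Every mutant array lay above every wild-type array, and the wild-type values were not far above the median probe intensity of an array (144 to 159 on wild-type arrays). Mutant arrays had medians of 138 to 147, so raw intensity as a whole tended to be higher on wild-type arrays. Raw comparisons of single probes carry this offset. On the log2 scale after background correction and quantile normalization the level of Hbb-b2 averaged 9.67 ± 0.27 in the mutant and 7.21 ± 0.09 in the wild-type (SD, n = 4 each). The difference, mutant minus wild-type, was 2.46 ± 0.13 (SE of the limma fit), a ratio of 5.52, while the ratio of the mean raw intensities, with no background removed, was 4.08. It ranked 1 of 8935 named genes from the highest difference down.

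The other adult beta-type probe went the other way. Hbb-bt, an adult beta gene of the reference strain, had raw intensities of 1666, 1362, 2025 and 992 on mutant arrays, against 3271, 2691, 2699.8 and 2166 on wild-type arrays. The highest mutant array stayed under the lowest wild-type array in raw intensity, but after normalization mutant array 3 (11.17) stood above wild-type array 4 (10.93) and the groups overlapped. The log2 level averaged 10.58 ± 0.56 in the mutant and 11.26 ± 0.25 in the wild-type, a difference of -0.68 ± 0.25. It was -0.45 without mutant replicate 4, the lowest array, and -0.88 without mutant replicate 3. Since no strain is given, a difference between the groups in the beta cluster they carry and a difference in expression of these adult beta genes cannot be told apart.

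Hba-x and Hbb-bh1, the embryonic zeta and beta-h1 chains, varied most among wild-type arrays. Hba-x had raw intensities of 8020.0, 8843, 7449 and 9390.2 on mutant arrays, against 14766, 10549, 21397 and 21507 on wild-type arrays. All mutant arrays lay below all wild-type arrays in raw intensity, and wild-type arrays 3 and 4 were the highest. There the Hba-x probe stood at 76.1% and 78.4% of the brightest probe of the array, against 31.6% to 37.9% on mutant arrays. After normalization mutant array 2 (13.23) and mutant array 4 (13.20) stood above wild-type array 2 (13.19), and the difference was -0.70 ± 0.22, from 13.16 ± 0.07 in the mutant and 13.85 ± 0.52 in the wild-type.

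Hbb-bh1 had raw intensities of 3607, 3682, 1723 and 5391 on mutant arrays, against 4971, 3019.7, 16598 and 14088 on wild-type arrays. Mutant arrays overlapped wild-type arrays 1 and 2, while wild-type arrays 3 and 4 stood far above all others. The log2 level averaged 11.79 ± 0.62 in the mutant and 12.75 ± 1.23 in the wild-type, a difference of -0.96 ± 0.54. In whole tissue, fewer red cells and less globin RNA per red cell cannot be told apart.

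Hbb-y and Hba-a1 were at the bright end of the array. The first probe of Hbb-y, the epsilon-y chain, had raw intensities of 20856, 20209.7, 19400.2 and 20968 on mutant arrays, against 21904, 23111, 20790.4 and 22859 on wild-type arrays. Mutant arrays tended to lie lower in raw intensity, with overlap. After quantile normalization they lay higher without overlap, at 14.41 ± 0.04 in the mutant and 14.33 ± 0.04 in the wild-type, a difference of 0.09 ± 0.07 that turned to -0.04 when arrays were scaled to their medians. The second Hbb-y probe gave 19134, 20092, 18423 and 19391 on mutant arrays and 20472, 20146, 20819 and 23281 on wild-type arrays. Its normalized difference was 0.06 ± 0.08, with overlapping groups.

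Hba-a1, an adult alpha chain also used by the first red cells, had raw intensities of 22326, 21776, 19964 and 19726 on mutant arrays, against 22597, 22525, 26552 and 21716 on wild-type arrays. The groups overlapped, and the normalized difference was 0.07 ± 0.09, or -0.07 with scaling to the median. This probe ranked 8 to 30 from the brightest on mutant arrays and 4 to 51 on wild-type arrays, at 79.7% to 90.0% and 79.2% to 94.4% of the brightest probe of the array. The first Hbb-y probe reached 82.3% to 84.7% on mutant and 73.9% to 85.4% on wild-type arrays.

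Bright probes as a class moved little on these arrays. The 100 brightest probes had a median SD of 0.09 (log2) over the 8 arrays, against 0.16 for 100 less bright probes further down the ranking, and a median absolute difference between genotypes of 0.06, against 0.10. No globin value equalled the brightest value of its array. Whether the probes of Hbb-y and Hba-a1 had stopped responding to more RNA was not tested, and their small differences say little about the amount of RNA.

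**Figure D1:**
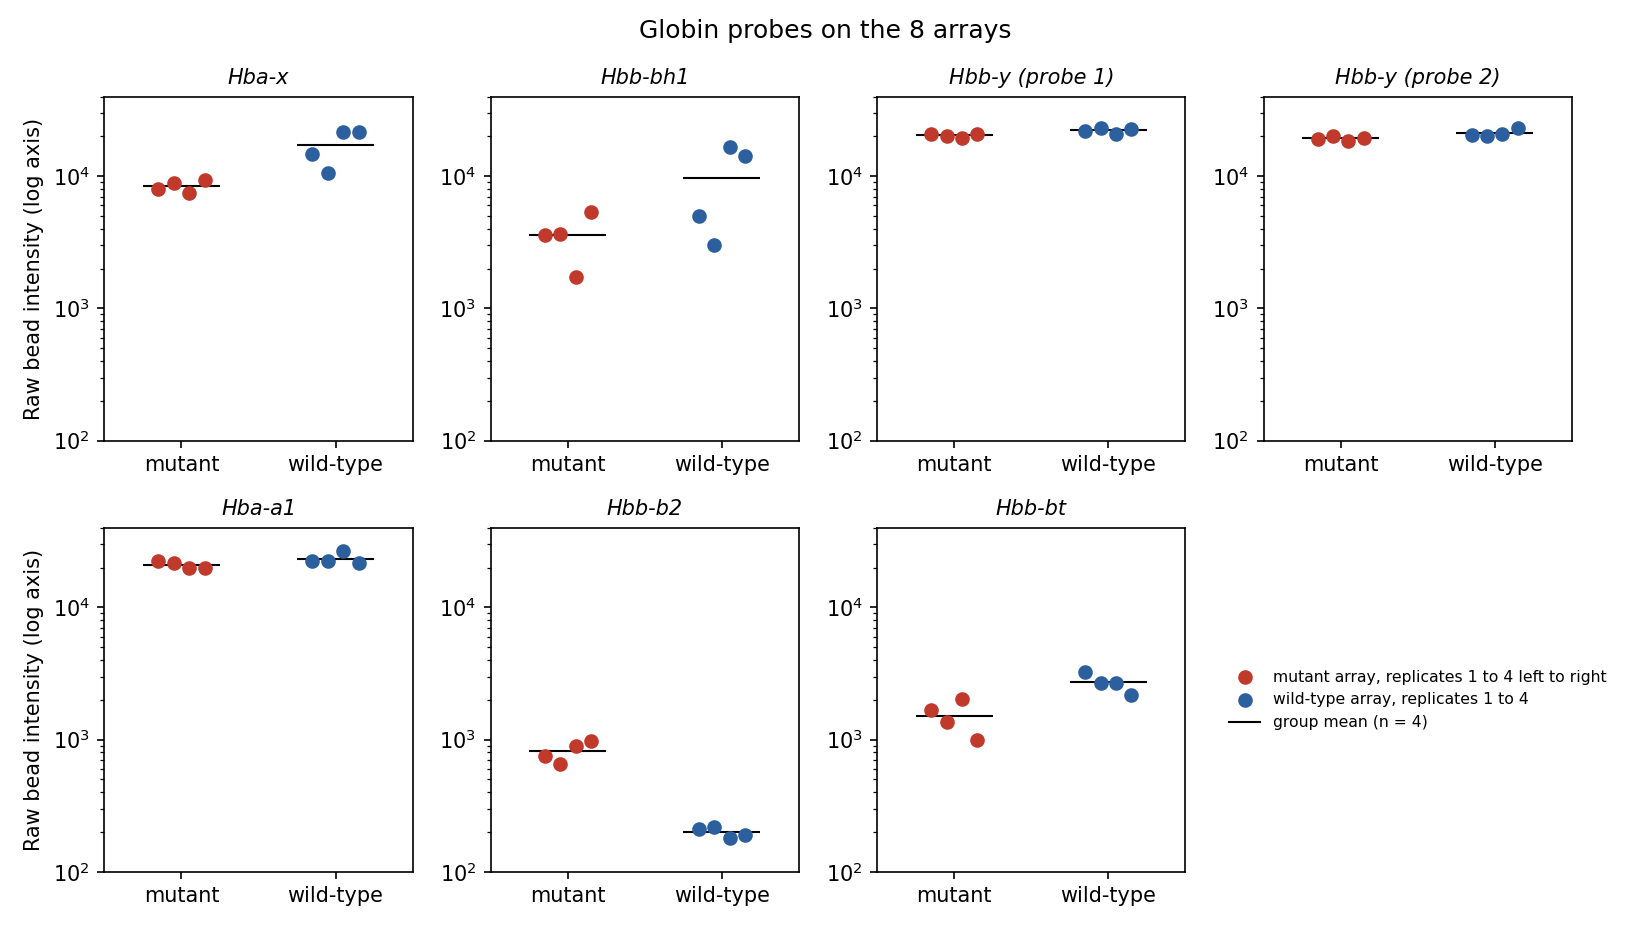
Raw bead intensity (log axis) of the 6 globin probes and of Hbb-bt, with each mutant array in red and each wild-type array in blue, replicates 1 to 4 from left to right, and the mean of 4 arrays as a line. Hbb-b2 lies at 650.2 to 970.4 on mutant arrays and at 180 to 217 on wild-type arrays, Hbb-bh1 is highest on wild-type arrays 3 and 4, and Hbb-y and Hba-a1 sit near the top of the scale on all arrays.

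Of the 5 globin genes, 1 was called higher (Hbb-b2) and 0 lower in the mutant by limma at a Benjamini-Hochberg adjusted p under 0.05, beside 1.40% of all named genes called higher and 1.11% called lower. Groups did not overlap on the normalized scale for 2 of the 5 (Hbb-b2 and Hbb-y), beside 12.0% of all named genes (6.30% with all mutant arrays higher, 5.65% with all lower). Nothing is read from these counts, since the same contrast chose the set. The 3 embryonic genes together averaged 13.12 ± 0.23 in the mutant and 13.65 ± 0.57 in the wild-type (mean log2 level, SD over 4 arrays each), a difference of -0.52. This mean takes in Hbb-y, at the bright end of the array and with a difference of 0.09, beside -0.70 for Hba-x and -0.96 for Hbb-bh1.

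Over all 9664 features, which are not independent, Pearson r was 0.994 for wild-type arrays 1 with 2 and 0.993 for arrays 3 with 4. Any other combination of wild-type arrays gave 0.975 to 0.981. With the mutant arrays, wild-type arrays 1 and 2 gave 0.983 to 0.986, and wild-type arrays 3 and 4 gave 0.970 to 0.981. Wild-type arrays 1 and 2 were therefore more like the mutant arrays than like wild-type arrays 3 and 4. Hba-x and Hbb-bh1 were high on wild-type arrays 3 and 4, whereas Hbb-b2 was low on all wild-type arrays. Without wild-type replicates 3 and 4 the difference of Hbb-bh1 was 0.07 ± 0.35 and that of Hba-x -0.28 ± 0.13, and without replicates 1 and 2 they were -1.99 ± 0.34 and -1.12 ± 0.09. The mean of the embryonic genes was -0.05 with that first omission and -0.9997 with the second. Hbb-b2 stood at 2.40 ± 0.16 and 2.53 ± 0.16 in the same order. With 1 array left out at a time, Hba-x ranged from -0.92 (without wild-type replicate 2) to -0.54 (without wild-type replicate 3) and Hbb-bh1 from -1.42 (without wild-type replicate 2) to -0.56 (without wild-type replicate 3).

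**Figure D2:**
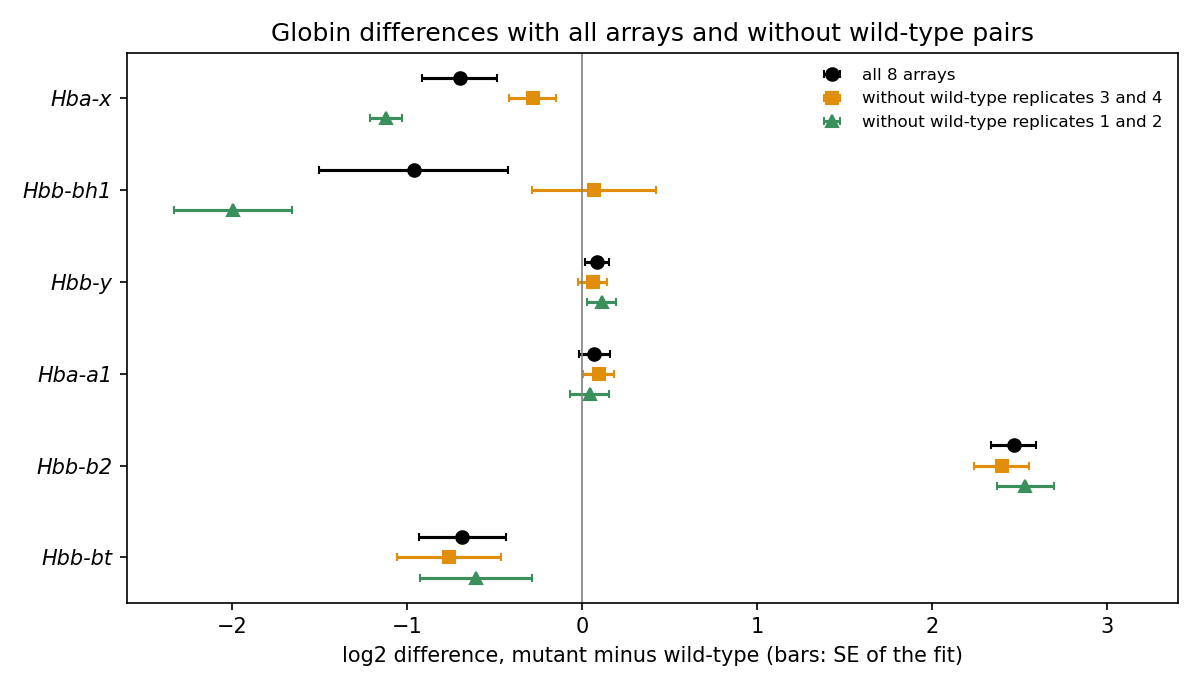
Log2 difference, mutant minus wild-type, of the brightest probe of each globin gene and of Hbb-bt, with the SE of the fit as bars, from all 8 arrays (circles), without wild-type replicates 3 and 4 (squares) and without wild-type replicates 1 and 2 (triangles). Hbb-bh1 stands at -0.96, 0.07 and -1.99 in these fits and Hbb-b2 at 2.46, 2.40 and 2.53.

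Other red cell genes did not choose the set and were tested in the fit over all features. The genes for haem synthesis and iron, the red cell membrane, erythroid transcription factors and red cell enzymes held 42 tested genes out of 66 listed. By limma 0 of 42 passed in either direction (7 had an unadjusted p under 0.05), beside 2.51% of all named genes called and 18.1% with an unadjusted p under 0.05. Differences were negative for 29 of the 42, with a median of -0.08, beside 4423 of 8935 negative and a median of 0.0018 over all named genes. The mean level of the 42 genes, centred on its mean over arrays, was -0.07 to -0.02 on mutant arrays, -0.02 and -0.13 on wild-type arrays 1 and 2, and 0.25 and 0.08 on wild-type arrays 3 and 4.

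Red cell genes did not share 1 pattern over the arrays: 20 of the 42 were highest on wild-type array 3, where Hbb-bh1 also peaked, and 6 were lowest there. How many of all named genes were highest on that array was not counted, so 20 of 42 is a description only. Dmtn, a protein of the red cell membrane skeleton that is also found in brain, had log2 levels of 8.55, 8.45, 8.55 and 9.10 on mutant arrays, against 9.35, 9.41, 8.30 and 8.94 on wild-type arrays. Others went with Hbb-bh1. Slc4a1, the anion exchanger of the red cell membrane, had log2 levels of 10.64, 10.56, 10.77 and 10.76 on mutant arrays, against 10.49, 10.20, 12.26 and 11.46 on wild-type arrays, a difference of -0.42 ± 0.37 (adjusted p = 0.592). Alas2, the erythroid enzyme that starts haem synthesis, had 8.88, 8.63, 9.01 and 8.84 on mutant arrays, against 9.17, 8.83, 10.01 and 9.31 on wild-type arrays (-0.49 ± 0.21, adjusted p = 0.256). Both were highest on wild-type array 3 and neither passed.

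Car2, a carbonic anhydrase of red cells and other tissues, had 7.56, 7.63, 7.48 and 7.74 on mutant arrays, against 7.87, 7.40, 8.94 and 8.49 on wild-type arrays. Klf1, the transcription factor that activates adult beta globin, stood at 7.08, 7.29, 7.23 and 7.41 on mutant arrays, against 6.98, 7.005, 7.99 and 7.501 on wild-type arrays. Trim10, an erythroid ubiquitin ligase, stood at 7.71, 7.53, 7.79 and 8.01 on mutant arrays, against 7.54, 7.46, 9.12 and 8.41 on wild-type arrays. All 3 were highest on wild-type array 3. Alas2, Car2, Kel, Nfe2, Slc4a1 and Trim10 passed the test (6 of 42, or 14.3%) when wild-type replicates 1 and 2 were left out, beside 13.6% of all named genes called in that fit. Values of Alas2, Car2, Dmtn, Klf1 and Trim10 are given because of how they looked, after their values were seen.

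The brightest members of the other red cell lists also did not pass. Among haem and iron genes Fth1, the ferritin heavy chain, differed by -0.14 ± 0.08 and Urod, a haem pathway enzyme, by -0.05 ± 0.12. The glucose transporter Slc2a1 differed by 0.13 ± 0.22. Ldb1, a cofactor that brings the distal enhancer of the beta cluster to its genes, stood at 0.21 ± 0.07 and Bach1, a haem-sensing repressor, at -0.09 ± 0.10. The antioxidant enzymes Prdx2 and Gpx1 differed by -0.21 ± 0.10 and -0.10 ± 0.11. Limma adjusted p-values of these 7 genes ran from 0.171 (Ldb1) to 0.873 (Urod). Bcl11a, known for silencing embryonic globins and also expressed in neurons, stood at 0.34 ± 0.09 (limma adjusted p = 0.0875). It did not pass either and was named after its values were seen, and its part in the globin levels was not tested.

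**Figure D3:**
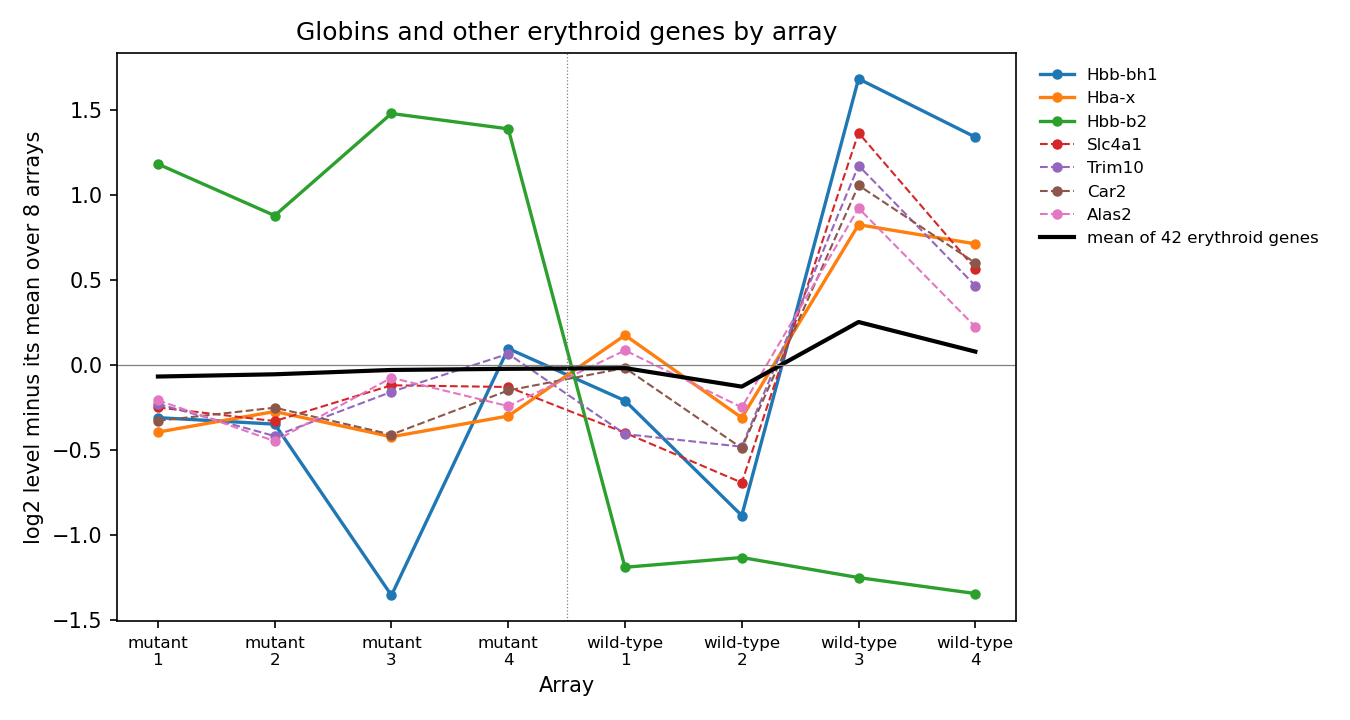
Log2 level on each array minus the mean over the 8 arrays for Hbb-bh1, Hba-x and Hbb-b2 (solid lines), for the red cell genes Slc4a1, Trim10, Car2 and Alas2, chosen after their values were seen (dashed), and for the mean of the 42 erythroid genes (black), with mutant arrays left of the dotted line. All lines but that of Hbb-b2 peak on wild-type array 3, where the level of Slc4a1 before centring is 12.26. Hbb-b2 lies above its mean on all mutant arrays (9.32 to 9.92 before centring) and below it on all wild-type arrays (7.09 to 7.30).

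Markers of the other cells of blood, vessels and ganglia were measured on the same arrays. Of 7 megakaryocyte and platelet genes 0 passed (median difference -0.10), and their mean level was -0.16 to 0.01 on mutant arrays, -0.30 and -0.18 on wild-type arrays 1 and 2, and 0.53 and 0.31 on wild-type arrays 3 and 4. Of 12 endothelial genes 0 passed (median 0.02), with mean levels of -0.22 to 0.15 on mutant and -0.17 to 0.17 on wild-type arrays. Genes that clear haemoglobin and haem gave 0 of 5 (median 0.01). Over all named genes 2.51% were called, so 0 calls in lists this small say little. Among the brightest members, the platelet chemokine Pf4 differed by -0.10 ± 0.16, Vwf, of platelets and vessels, by -0.0040 ± 0.18, and the endothelial genes Ramp2 and Egfl7 by -0.17 ± 0.15 and 0.0076 ± 0.12. The haem-degrading enzymes Hmox2 and Blvra stood at -0.32 ± 0.11 and -0.24 ± 0.09. Limma adjusted p-values of these 6 genes ran from 0.175 (Hmox2) to 0.995 (Vwf).

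All 10 tested macrophage genes of 12 listed had positive differences (median 0.70) and 0 passed. Over all named genes 4423 of 8935 differences were negative. The level of the macrophage genes was 0.29, 0.60, 0.96 and -0.52 on mutant arrays 1 to 4, against -0.37 to -0.27 on wild-type arrays. The complement gene C1qb differed by 0.88 ± 0.39 and the Fc receptor chain Fcer1g by 0.48 ± 0.24 (adjusted p = 0.274 and 0.319). Hbb-b2 had log2 levels of 9.62, 9.32, 9.92 and 9.83 on mutant arrays 1 to 4. Unadjusted limma p-values under 0.05 were found for 0 of 7 platelet, 1 of 12 endothelial, 2 of 5 haem clearance and 6 of 10 macrophage genes. Over all named genes the share was 18.1%, with 2.51% called. The part of these cells in the globin values was not tested.

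For the ganglion itself, lists of sensory neuron genes and of glia and crest genes were read. The sensory neuron genes held 12 tested members, with Isl1, a transcription factor of these neurons, at log2 levels of 14.37 to 14.52 on mutant arrays and 14.15 to 14.62 on wild-type arrays. Not every member was bright: Tubb3 averaged 7.15 in the mutant and 7.17 in the wild-type. Tlx3, another sensory neuron factor, rose by 0.75 ± 0.12 (limma adjusted p = 0.0108). Egr2, a glial and boundary cap factor downstream of ERK, fell by 1.498 ± 0.10 on the log2 scale (adjusted p = 8.3e-05). Its mutant levels of 6.39 to 6.49 lay under the filter level of 6.71, so it passed that filter through the wild-type arrays alone, and its difference was -1.16 with no background correction. These were the 2 called genes of the ganglion lists, 1 of 12 sensory neuron genes and 1 of 4 glia and crest genes, beside 2.51% of all named genes.

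The genes whose pattern over the 8 arrays was most like that of the embryonic globins came from outside the red cell lists. Those lists held only 42 of the 8935 named genes tested, so their absence among the 6 most alike says little about red cell genes. Pearson r with the mean of Hba-x, Hbb-bh1 and Hbb-y was 0.987 for Cenpi, a kinetochore gene, 0.986 for the spindle gene Haus6, 0.983 for Mcm6, part of the replicative helicase, 0.982 for Rrm1, a ribonucleotide reductase subunit, 0.981 for Greb1 and 0.978 for Ung, a DNA repair enzyme. Rrm1 had log2 levels of 9.36, 9.40, 9.17 and 9.33 on mutant arrays, against 9.52, 9.27, 10.06 and 9.97 on wild-type arrays. All 6 were highest on wild-type arrays 3 and 4; over the other 6 arrays r ran from 0.858 (Rrm1) to 0.951 (Greb1). Their differences between genotypes ran from -0.50 to -0.30, and none passed the test. That of Mcm6 depended on the processing: over 21 alternatives it ran from -0.66 to 0.55 and kept its sign in 19. Arrays share litters in an unknown way, and these r values describe likeness and nothing more.

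The genes most like Hbb-b2 separated the genotypes in the same way. Pearson r over the 8 arrays was 0.997 for Ccl19, a chemokine, 0.985 for Fbxo32, a ubiquitin ligase gene, 0.983 for Tmem108, 0.983 for Tmem25, 0.979 for Urgcp and 0.979 for Pigo, an enzyme of glycolipid anchor synthesis. Ccl19 had log2 levels of 8.28, 8.17, 8.54 and 8.28 on mutant arrays, against 6.34, 6.38, 6.30 and 6.25 on wild-type arrays. The differences of the 6 genes were positive, from 0.32 (Tmem108) to 2.12 (Tmem25). Ccl19 and Tmem25 lay under the filter level of 6.71 on all wild-type arrays and passed it through the mutant arrays alone. Their differences depend on how background is handled: with no background correction they were 1.57 for Ccl19 and 1.604 for Tmem25. A high r here mostly restates that the groups differ, since Hbb-b2 itself splits them.

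The nearest tested genes on either side of each cluster were read for comparison. Around the beta cluster the 12 genes lay 1100 to 1751 kb away, and no closer gene other than globins was tested. They had a median difference of 0.20, with 10 positive, and 1 was called. Over all named genes 4423 of 8935 differences were negative and 2.51% were called. The called neighbour was Trim68, a ubiquitin ligase gene, which rose by 0.59 ± 0.12 (limma adjusted p = 0.0336). It lost the call without any single array except wild-type replicates 1 or 2 (adjusted p = 0.0670 to 0.0940), without wild-type replicates 3 and 4 (0.104), with the erythroid level as a covariate (0.0563), and with the replicate number as a block (0.127). Its difference stayed at 0.53 to 0.64 in the single omissions that lost the call, and was 0.59 with the block. Rrm1 was the lowest of the 12 at -0.39 ± 0.16. None of the 12 came near the difference of Hbb-b2 in size, though Hbb-b2 itself has no place in this gene order.

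Around the alpha cluster 12 genes within 1328 kb had a median difference of -0.02, with 5 positive, and 1 was called, Tlx3. Nprl3, whose introns hold the alpha globin enhancers, lies 8.89 kb from Hba-x on that side and differed by 0.04 ± 0.09 (adjusted p = 0.853). Over whole chromosomes 20 of 689 tested genes of chromosome 7 were called (2.90%) and 21 of 772 of chromosome 11 (2.72%), beside 2.51% of all named genes.

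**Figure D4:**
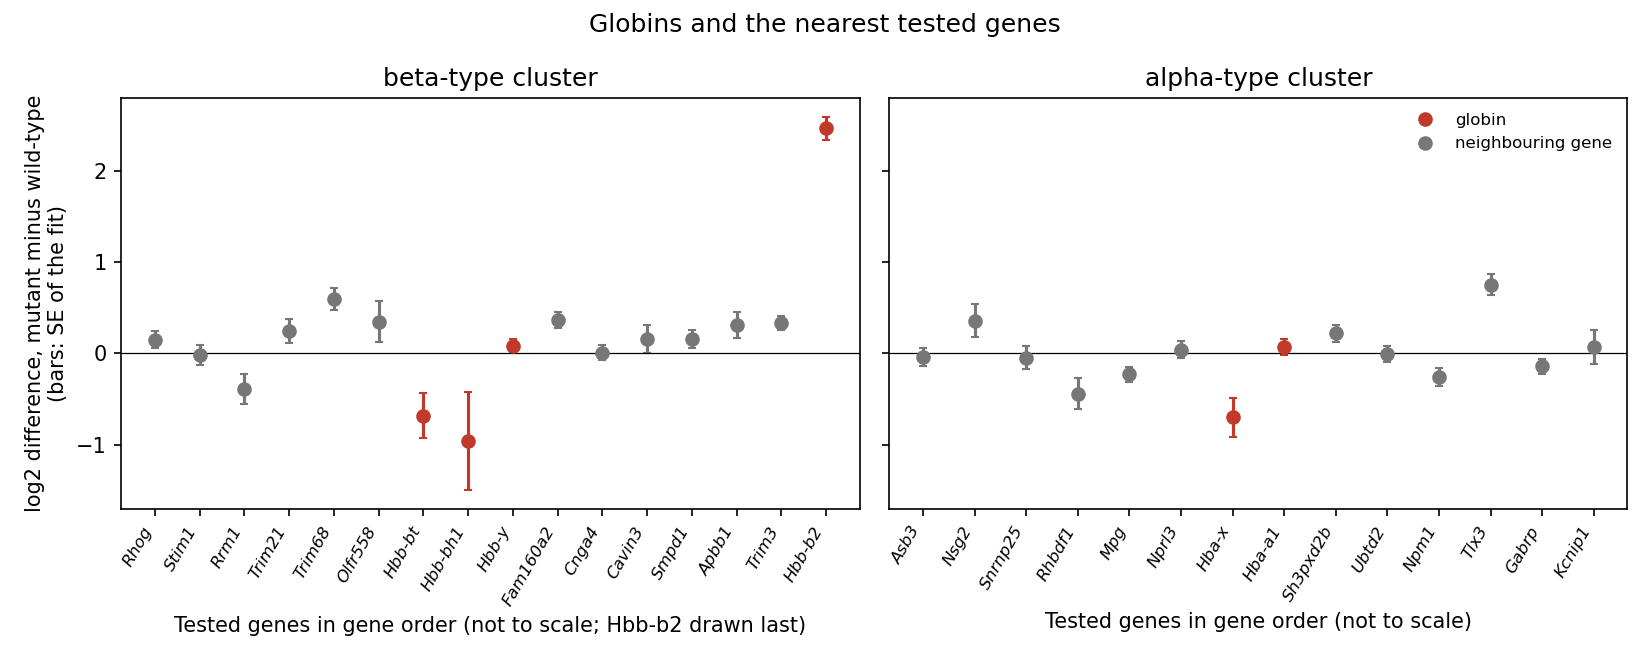
Log2 difference, mutant minus wild-type, with the SE of the fit as bars, of the globins (red) and of the 6 nearest tested genes on each side (grey), in gene order and not to scale; Hbb-b2, which has no place in that order, is drawn last. Hbb-b2 stands at 2.46, and the neighbours of the beta and alpha clusters lie between -0.44 and 0.75.

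Other globins were dim. Averaged over the 8 arrays, the probes of Hbq1a and Hbq1b, the theta chains of the alpha cluster, lay under the filter level of 6.71 (means of 6.31 and 6.50 in the mutant, 6.18 and 6.61 in the wild-type). So did both probes of Mb, the globin of muscle, and both of Ngb, the globin of neurons, although the first Ngb probe averaged 6.67 in the mutant and 6.74 in the wild-type and exceeded that level on 3 mutant and 2 wild-type arrays. Cygb, cytoglobin, passed the filter and differed by -0.12 ± 0.14 (adjusted p = 0.715).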

How the data were processed

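Ganglion RNA was measured on 8 bead arrays, 4 mutant and 4 wild-type, as grouped by the sample titles. The deposited bead intensity values are linear and not background-subtracted as far as they show (80.3 to 28125, 25697 probes); BeadStudio is the only tool named, per the submitters' processing notes, without version. The authors' log2 table equals log2 of these intensities after quantile normalization (largest difference 5.0e-09, column median 7.21). With neither detection p-values nor control probes at hand, intensities were corrected with normexp (offset 50), quantile normalized and put on the log2 scale in limma 3.58.1 (R 4.3.3). Symbols came from the platform annotation through Entrez identifiers and GRCm38.p6 (23962 by identifier, 16 kept, 1719 probes with none, 0 with several).

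Probes with a mean above the median of all probes (log2 6.71) were kept, and the brightest stood for each gene: 9664 features, 8935 of them named genes. Each was tested with limma (lmFit, eBayes, two-sided, mutant minus wild-type, no covariate), with Benjamini-Hochberg adjustment over all 9664 and a threshold of 0.05. The fit was tested on simulated data. SE are those of the fit; the number of arrays limits the precision (median SE 0.10). Nothing says that samples were separate embryos, so p-values measure the spread between these samples. Same-numbered arrays did not deviate together (correlations of -0.28 to -0.05), and the main fit did not pair them. Whether they shared a litter cannot be told from this, since litters are not tied to arrays.

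Named genes are all probes of the set, the 6 features most correlated with the embryonic mean and with Hbb-b2, the 6 nearest tested genes on each side of a cluster, and from each marker list up to 4 called members or the 2 brightest; others were named after their values were seen. The members and lists were chosen with earlier results of these data known. Promoter windows are from RefSeq; identities were computed with Biopython 1.88. Alternatives are given in the closing section.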

Additional observations from a re-analysis of the deposited data

How the results depend on the processing

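The difference of Hbb-b2, which chose the set and from whose call nothing is read, ran from 2.18 to 2.58 over 21 alternatives. The lowest values, 2.18, came without background correction and from the authors' table. Leaving out 1 array gave 2.38 to 2.58, and the replicate block 2.46. The embryonic mean kept its sign under all 21 (-0.75 to -0.34 without 1 array), at -0.0502 when wild-type arrays 3 and 4 were left out and -0.9997 when arrays 1 and 2 were. Of the 105 values of Hba-x, Hbb-bh1, Hbb-y, Hba-a1 and Hbb-bt, 98 moved by less than the SD between replicates and 7 by more. Called genes numbered 224, and 341 with array weights, 82 with the replicate block (adjusted p = 0.0597 for Tlx3), 1218 without wild-type replicates 1 and 2, and 67 to 200 without 1 array (67 and 79 without mutant replicates 1 and 2, 128 and 89 without wild-type replicates 3 and 4). Erythroid calls stayed at 0 except for 6 (14.3% of 42) without wild-type replicates 1 and 2, where 13.6% of all named genes were called. With the erythroid level as a covariate Hbb-b2 was 2.45, Hba-x -0.43 and Hbb-bh1 -0.33. Median scaling moved the median difference of all named genes to -0.06. No explanation of these shifts was tested. Levels at the bright end limit what Hbb-y and Hba-a1 can show, and what Hba-x can show on wild-type arrays 3 and 4.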
